A study of Mus musculus with 24 samples.

Results

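Gm13340 is a mouse gene model on chromosome 2, annotated as an unprocessed pseudogene, whose sequence is a close copy of mt-Co1, the mitochondrial DNA (mtDNA) gene for the catalytic subunit of cytochrome c oxidase. It is 1 of the 15323 genes with values here. It was chosen by its own normalised values in the 24 libraries, which differed with the mtDNA the mice carried. Its levels are therefore described below without a test, and tests are kept for other genes.

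Mammalian nuclear genomes hold many copies of mtDNA sequence that were inserted into chromosomes during evolution. Most of these copies are not known to make a protein. The mtDNA itself is transcribed from both strands into long RNAs that are cut into polyadenylated messengers. A short read from a stretch that copy and original share carries no mark of which of them it came from, and a base change in the mtDNA of another mouse strain can make a read of the original resemble the copy more or less. Cytochrome c oxidase, complex IV of the respiratory chain, is built around mt-Co1 with other mtDNA-encoded and nuclear-encoded subunits.

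Polyadenylated RNA was sequenced from the median lobe of the liver and the left ventricle of the heart of male mice aged 10 weeks. Each genotype name gives the nucleus before the colon and the mtDNA after it. Studied were the conplastic lines BL/6J:NZB (C57BL/6 nucleus, NZB mtDNA) and NZB:C57 (NZB nucleus, C57 mtDNA), each made by backcrossing for 10 generations, and the parental lines BL/6J:C57 and NZB:NZB. RNA of 4 animals was mixed in equal parts per library, with 3 pools in each of the 8 groups, so the spread given is between pools and not between animals. Libraries on the BL/6J nucleus are titled mix and those on the NZB nucleus rep, and a difference in handling behind these words and one of the nucleus cannot be told apart.

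The recovered depth ran from 3714278 to 12949956 reads in hearts and from 7294525 to 34974268 in livers. The 8 cardiomyocyte markers summed to 27880 or more in every heart and to at most 152 in every liver, and the 8 hepatocyte markers summed to at most 193 in every heart and to 119266 or more in every liver. NZB:C57 hearts stood apart from the others, with a sum of values over all genes of 1048698 to 1068799, against 643486 to 726047 in the other hearts. The genes encoded by mtDNA were not analysed here, so the mtDNA labels could not be checked on mtDNA transcripts.

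In GRCm38, the build named in the submitters' processing notes, Gm13340 spans chr2:22588103-22589647 on the minus strand. It lies inside an intron of Myo3a, a gene for a motor myosin of hair cells that runs on the opposite strand; 3 annotated Myo3a transcripts span it and none has an exon there. Gm13340 and mt-Co1 (chrM:5328-6872, plus strand) are both 1545 bases long and line up without a gap. They are identical at 1508 positions, or 97.6%, and differ at 37. Of these differences 33 are transitions and 4 are transversions. By the reading frame of mt-Co1, 31 fall on the third base of a codon, 4 on the first and 2 on the second. Read with the mitochondrial code, 4 of the 515 codons give another amino acid and 0 give a stop before the end. Read with the nuclear code, Gm13340 has 18 stop codons, the first at codon 6, and mt-Co1 itself would have 17.

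The differing bases are spread along the gene, as the map of Gm13340 against mt-Co1 shows. The stretch of 120 bases that holds the most of them (bases 1174 to 1293, counted from 1 at the 5′ end of Gm13340) has 6, and is printed for both genes because it is where a read would be easiest to place. Capitals mark the bases that differ.
Gm13340, chr2:22588355-22588474, minus strand: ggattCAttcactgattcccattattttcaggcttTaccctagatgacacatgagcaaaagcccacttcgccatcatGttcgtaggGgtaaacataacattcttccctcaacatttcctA
mt-Co1, chrM:6501-6620, plus strand: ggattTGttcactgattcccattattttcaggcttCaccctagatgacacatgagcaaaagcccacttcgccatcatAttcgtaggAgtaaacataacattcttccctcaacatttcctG
With the Gm13340 base first and the mt-Co1 base last, the changes are C1179T, A1180G, T1209C, G1251A, G1260A and A1293G. The opposite case is the longest run without a difference, 148 bases at positions 314 to 461, in which no read could be placed by its sequence.
Gm13340, chr2:22589187-22589334, minus strand: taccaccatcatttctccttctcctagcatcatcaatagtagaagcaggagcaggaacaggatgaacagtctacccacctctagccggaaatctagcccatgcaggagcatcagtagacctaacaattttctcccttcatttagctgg
A window of 31 bases is the same in both genes at 45.2% of its possible positions in Gm13340. The share is 27.5% for 50 bases, 14.96% for 75 and 5.53% for 100. No source used here gives the read length. The printed mt-Co1 sequence is that of the reference genome, and the mtDNA sequence of NZB mice was not used here.

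**Figure D1:**
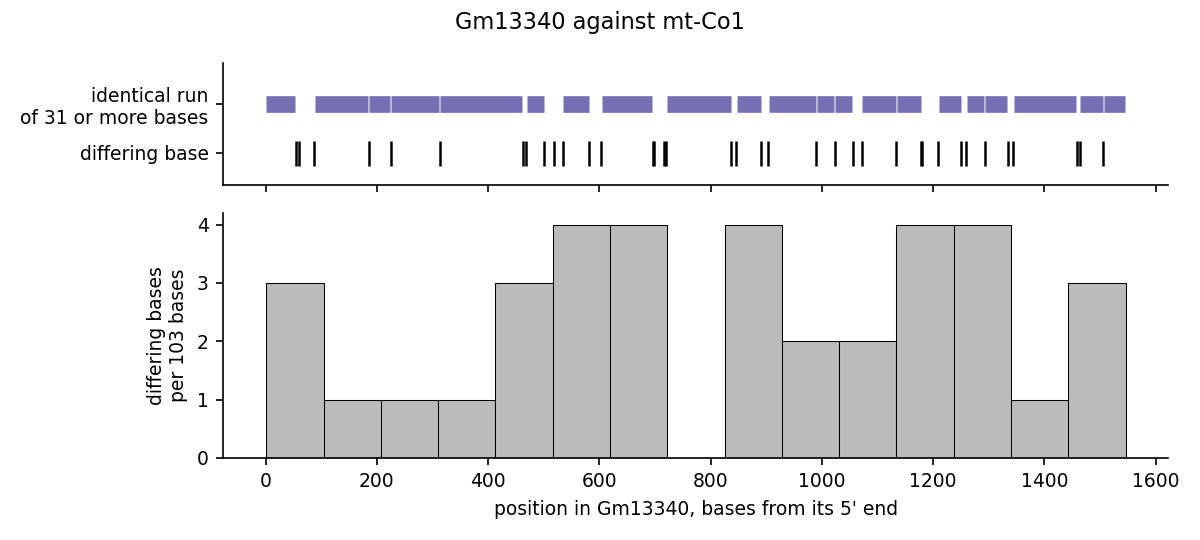
Positions where Gm13340 and mt-Co1 differ, along Gm13340 in bases from its 5′ end. The upper panel shows the 37 differing bases as ticks and the 21 identical runs of at least 31 bases as bars, and the lower panel counts differing bases in consecutive windows of equal length, from 0 to 4 per window.

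The level of Gm13340 differed most between the mtDNAs on the BL/6J nucleus. Values are the authors' normalised read counts, with the recovered reads behind them where they are few. In hearts, Gm13340 had values of 101, 109.7 and 65.9 in BL/6J:NZB pools 1, 2 and 3, against 1.09, 1.43 and 1.48 in BL/6J:C57 pools. Every BL/6J:NZB heart was far above every BL/6J:C57 heart. The means were 92.2 ± 23.2 in BL/6J:NZB hearts and 1.33 ± 0.209 in BL/6J:C57 hearts (SD, n = 3 each), a ratio of 69.1 and a difference of 5.29 in mean log2(value + 1). In livers, the values were 25.2, 9.28 and 8.42 in BL/6J:NZB pools, against 0.529, 0.725 and 0.438 in BL/6J:C57 pools. The groups did not overlap, but BL/6J:NZB liver pool 1 stood apart from the other pools of its group. The means were 14.3 ± 9.44 in BL/6J:NZB livers and 0.564 ± 0.147 in BL/6J:C57 livers, a ratio of 25.4 and a log2 difference of 3.13, or 2.66 without BL/6J:NZB liver pool 1.

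Low values of Gm13340 rested on few reads. The BL/6J:C57 hearts had 12, 9 and 8 reads and the BL/6J:C57 livers 6, 13 and 11, whereas the BL/6J:NZB hearts had 678, 691 and 920 and the BL/6J:NZB livers 270, 108 and 117. By exact Poisson 95% intervals, which cover counting error only, the upper limit of the value was at most 2.91 in any BL/6J:C57 heart and at most 1.24 in any BL/6J:C57 liver. The lowest lower limit in the other groups was 15.6 in hearts and 4.73 in livers. Gm13340 was above 0 in all 24 libraries.

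On the NZB nucleus Gm13340 was readily detected with either mtDNA, and the mtDNA made a much smaller difference. In hearts, it had values of 28.4, 22.0 and 19.4 in NZB:C57 pools, against 39.2, 36.5 and 33.3 in NZB:NZB pools. All NZB:C57 hearts were below all NZB:NZB hearts. The means were 23.3 ± 4.64 in NZB:C57 hearts and 36.4 ± 2.97 in NZB:NZB hearts (SD, n = 3 each), a ratio of 0.641 and a log2 difference of -0.63. In livers, the values were 15.6, 6.79 and 12.7 in NZB:C57 pools, against 18.004, 15.8 and 17.9 in NZB:NZB pools. The groups touched without overlapping, since the highest NZB:C57 liver had 15.6 and the lowest NZB:NZB liver 15.8. The means were 11.7 ± 4.49 in NZB:C57 livers and 17.2 ± 1.23 in NZB:NZB livers, a ratio of 0.678 and a log2 difference of -0.59. That liver difference leaned on NZB:C57 liver pool 2, the library with the fewest liver reads, and was -0.27 without it.

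**Figure D2:**
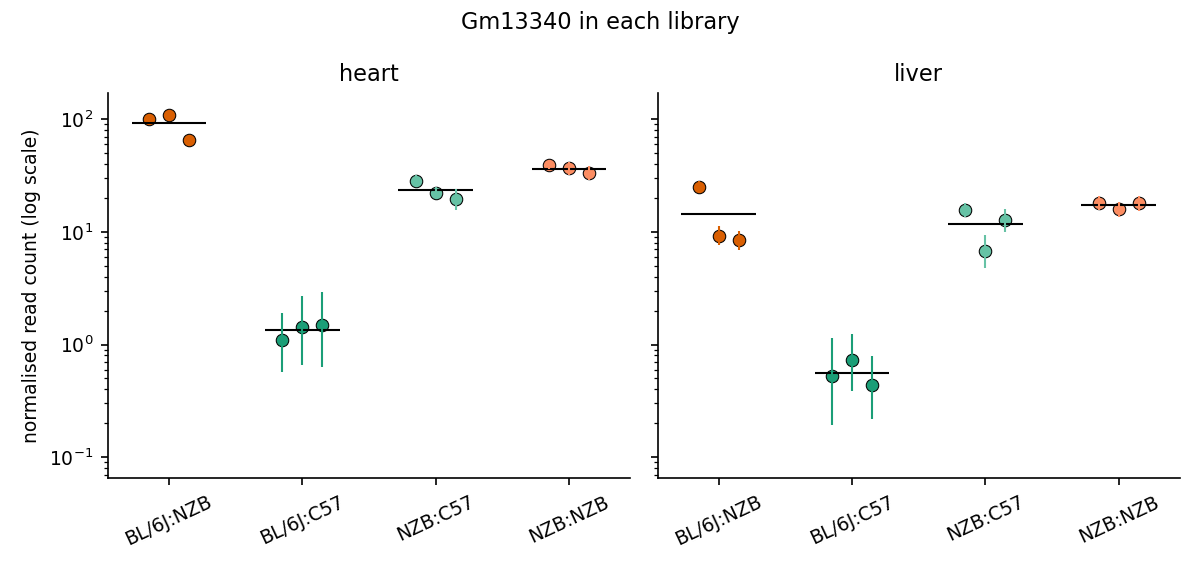
Normalised read count of Gm13340 (log axis) in each of the 3 pools of the 4 genotypes, hearts left and livers right. Points are pools, thin bars their exact Poisson 95% intervals and black lines group means. BL/6J:C57 pools sit between 0.438 and 1.48, and all other pools between 6.79 and 109.7.

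C57 mtDNA thus came with very different levels of Gm13340 on the NZB and BL/6J nuclei. NZB:C57 hearts, with a mean of 23.3, were 17.5 times BL/6J:C57 hearts, with 1.33. NZB:C57 livers, with a mean of 11.7, were 20.7 times BL/6J:C57 livers, with 0.564. Both pairs carry C57 mtDNA by their labels, and their values did not overlap in either tissue. With NZB mtDNA the nuclear genomes were closer: NZB:NZB hearts (36.4) were at 0.394 of BL/6J:NZB hearts (92.2) without overlap, whereas NZB:NZB livers (17.2) lay inside the range of BL/6J:NZB livers (8.42 to 25.2). A low value of Gm13340 therefore marked the BL/6J:C57 libraries, whatever the tissue. Within hearts its level also sorted all 12 libraries by mtDNA, from 33.3 to 109.7 with NZB mtDNA and from 1.09 to 28.4 with C57 mtDNA. Within livers it did not: NZB:C57 liver pools 1 and 3 (15.6 and 12.7) were above BL/6J:NZB liver pools 2 and 3 (9.28 and 8.42).

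Across the 8 groups, the order of mean values was BL/6J:NZB heart (92.2), NZB:NZB heart (36.4), NZB:C57 heart (23.3), NZB:NZB liver (17.2), BL/6J:NZB liver (14.3), NZB:C57 liver (11.7), BL/6J:C57 heart (1.33) and BL/6J:C57 liver (0.564). The 3 liver groups in the middle overlapped with their neighbours in this order. All other neighbours were separate at 3 pools each. Hearts had more Gm13340 than livers in each genotype, without overlap: 6.45 times in BL/6J:NZB, 2.37 times in BL/6J:C57, 1.99 times in NZB:C57 and 2.11 times in NZB:NZB mice. With reads scaled to the library total (RPM) these ratios were 12.2, 4.65, 2.65 and 3.86. The authors' values summed to 643486 to 1068799 per heart library and to 1188569 to 1435752 per liver library. In whole tissue, fewer cells holding an RNA and less RNA per cell cannot be told apart, and mtDNA transcripts were not analysed here to set beside these ratios.

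The scale mattered in the hearts on the NZB nucleus. In RPM, Gm13340 in NZB:C57 hearts was at 0.394 of its level in NZB:NZB hearts, a log2 difference of -1.32. On that scale the median of all genes in the same comparison was -0.65, against -0.00 with the authors' values, so Gm13340 was lower by about the same step against other genes in both. The direction was the same in livers, at 0.575 of the NZB:NZB level in RPM. On the BL/6J nucleus the ratios hardly moved, at 70.5 in hearts and 26.8 in livers.

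Set against all genes, the separation by mtDNA was rare. Of 12063 genes that reached a value of 1 in 3 or more libraries of each tissue, Gm13340 was the only one whose libraries with NZB mtDNA all lay above those with C57 mtDNA on the same nucleus in the same tissue, in 4 of 4 pairs of groups (0.00829% of genes). In the opposite direction there was none (0%). Since Gm13340 was chosen for these values, this is a description of how seldom the pattern occurs. In RPM 41 genes met it. A second pattern was set after the values were seen: BL/6J:C57 libraries all below the other libraries in both tissues. It held for 5 genes of the 12063 (0.0414%), or 6 of all 15323 (0.0392%). These were Gm13340, Mfng, Cttnbp2nl, Lca5, Gm11408 and Ndrg1. The smallest of the log2 differences of group means that set BL/6J:C57 apart was 2.96 for Gm13340 and 0.23 for Mfng, the next gene.

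The log2 difference of Gm13340 between BL/6J:NZB and BL/6J:C57 was the highest of 13803 genes in hearts and of 13159 in livers. In livers, 5 genes had a larger difference in absolute size, all of them lower in BL/6J:NZB. On the NZB nucleus Gm13340 was not extreme, since 1475 genes in hearts and 1334 in livers had larger absolute differences between NZB:C57 and NZB:NZB.

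Other nuclear genes made of mtDNA sequence gave a comparison that did not use the values of Gm13340. By the share of their 31-base words found in the 37 annotated mtDNA genes, 14 nuclear genes of the annotation shared at least 10%, and 5 of these had values: Gm13340 with 45.2%, Gm10222 with 100% (mt-Nd4l), Gm13341 with 48.0% (mt-Co2), Gm13339 with 28.3% (mt-Nd2) and Gm4076 with 24.6% (mt-Nd5). The mtDNA genes mt-Nd2, mt-Nd4l and mt-Nd5 encode subunits of complex I, and mt-Co2 encodes a core subunit of complex IV. Gm11408 on chromosome 4 shared 7.36% (mt-Nd6). Cep295, a centrosome gene, shared only 0.0243%. Gm13341 ends 141 bases from Gm13340 and Gm13339 begins 377 bases from it on its other side, in the order of their mtDNA counterparts.

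Gm13340 had many more reads per length than these flanking copies in the groups where it was high. In BL/6J:NZB hearts Gm13340 averaged 59.7 ± 15.02 normalised counts per kilobase, Gm13339 2.89 ± 1.36 and Gm13341 0.636 ± 0.0916 (SD, n = 3). In BL/6J:C57 hearts they averaged 0.863 ± 0.136, 0.225 ± 0.196 and 1.64 ± 1.12 per kilobase in the same order. In BL/6J:NZB hearts Gm13341 was far below Gm13340 per kilobase in all 3 pools. In BL/6J:C57 hearts it was above Gm13340 in pools 2 and 3, and below it in pool 1 (0.407 for Gm13341 and 0.708 for Gm13340). Gm13339 had 119 reads over the 18 libraries of the other genotypes and 4 over the 6 BL/6J:C57 libraries. Gm13341 had 55 reads over the 18 and 63 over the 6, so the copies on either side of Gm13340 leaned opposite ways. Gm13341 did not pass the filter for testing in either tissue, and Gm13339 passed it in hearts only. Its log2 difference was 1.12 between BL/6J:NZB and BL/6J:C57 hearts. No BL/6J:C57 heart was above 0.185 for Gm13339, which passed the filter only through the other groups, so the difference is given without a p.

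Gm4076, a processed pseudogene on chromosome 13 with mt-Nd5 sequence, had its reads in hearts mostly where the mtDNA was NZB. It had 19, 20 and 16 reads in BL/6J:NZB hearts, against 0, 0 and 1 in BL/6J:C57 hearts. The difference was 1.62 on the scale of log2(value + 1). On the NZB nucleus it had 2, 2 and 3 reads in NZB:C57 hearts, against 13, 12 and 12 in NZB:NZB hearts. There the difference was -1.02. Gm4076 reached a value of 1 only in hearts with NZB mtDNA and passed the filter for testing through them alone, so these differences are given without a p. For Gm4076 the means were 0.332 in NZB:C57 hearts and 0.0616 in BL/6J:C57 hearts, both resting on few reads. For Gm13340 the means of these groups were 23.3 and 1.33.

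In livers Gm4076 was below the filter. It had 9 reads in NZB:C57, 12 in NZB:NZB, 4 in BL/6J:NZB and 0 in BL/6J:C57 livers, each summed over 3 pools. There Gm4076 had more reads on the NZB nucleus, with either mtDNA. Over both tissues it had 124 reads spread over 18 of the 18 libraries of the other genotypes and 1 read in the 6 BL/6J:C57 libraries. Gm11408, also below the filter, had at least 1 read in each of the same 18 libraries, 33 in all, with exactly 1 read in 13 of them. In the 6 BL/6J:C57 libraries it had 0 reads, a count that allows up to 3. Gm11408 was singled out after its values were seen, so its counts are a description.

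**Figure D3:**
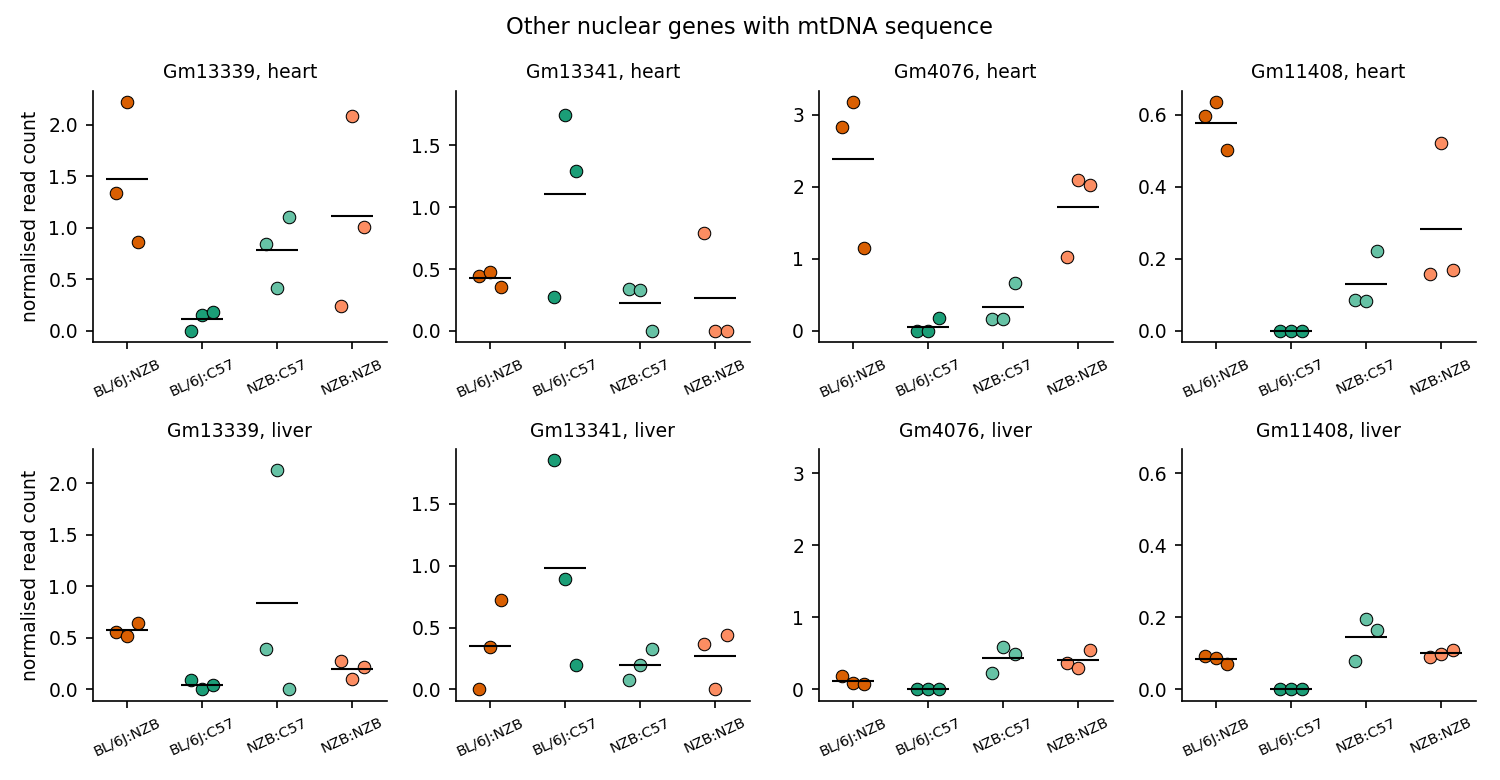
Normalised read counts of Gm13339, Gm13341, Gm4076 and Gm11408 in each pool (points) with group means (lines), hearts above and livers below, each column with its own axis. Gm4076 hearts with NZB mtDNA sit above those with C57 mtDNA on the same nucleus, and Gm11408 is at 0 in the BL/6J:C57 pools.

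Gm10222, whose sequence is identical to mt-Nd4l at every word tested, had its levels ordered another way. In hearts, it had values of 16.1, 18.1 and 13.3 in BL/6J:NZB pools, against 17.3, 19.1 and 18.7 in BL/6J:C57 pools, and 9.68, 9.08 and 9.93 in NZB:C57 pools, against 8.98, 7.66 and 7.27 in NZB:NZB pools. It was lower on the NZB nucleus than on the BL/6J nucleus, with a log2 difference of -0.89 in hearts (SE 0.09, limma adjusted p = 2.66e-07) and of -1.01 in livers (SE 0.22, adjusted p = 0.00236). These averaged comparisons called 45.1% of genes in hearts and 41.8% in livers. In livers, it had values of 9.89, 3.78 and 3.46 in BL/6J:NZB pools, against 19.5, 17.0 and 8.92 in BL/6J:C57 pools, and 3.37, 3.88 and 3.46 in NZB:C57 pools, against 4.39, 4.32 and 3.65 in NZB:NZB pools. With NZB mtDNA, BL/6J:NZB liver pools 2 and 3 lay within the range of the livers on the NZB nucleus (3.37 to 4.39), and pool 1 lay above it. The BL/6J difference in livers was -1.32 (SE 0.31) and missed the threshold (limma, adjusted p = 0.222), but it was called by DESeq2, and by limma without BL/6J:C57 liver pool 3. That comparison called 0.0076% of 13159 genes by limma, and the comparison of NZB:C57 with NZB:NZB livers called 8.09%.

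Gm13340 and Gm10222 ranked the pools in the same order in BL/6J:NZB livers, BL/6J:NZB hearts and NZB:NZB hearts. In the other groups they did not, and between groups their levels did not move together. BL/6J:NZB liver pool 1 was high for both genes. The ratio of Gm13340 to Gm10222 per kilobase, chosen after the values were seen, was 0.485, 0.467 and 0.464 in the BL/6J:NZB liver pools, so the pool that stood apart for Gm13340 did not stand apart in this ratio. In BL/6J:C57 livers the ratio ran from 0.00517 to 0.00934, and the group means differed by 62.5 times. In hearts the ratio was 1.19, 1.15 and 0.946 in BL/6J:NZB pools, against 0.0120 to 0.0151 in BL/6J:C57 pools, and the group means differed by 79.6 times. In hearts on the NZB nucleus it was 0.559, 0.462 and 0.372 in NZB:C57 pools, against 0.832, 0.908 and 0.872 in NZB:NZB pools. These groups did not overlap and their means stood at 0.533, independent of any constant per library. In livers the ratio was 0.881, 0.333 and 0.698 in NZB:C57 pools, against 0.781, 0.696 and 0.934 in NZB:NZB pools, and these groups overlapped.

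**Figure D4:**
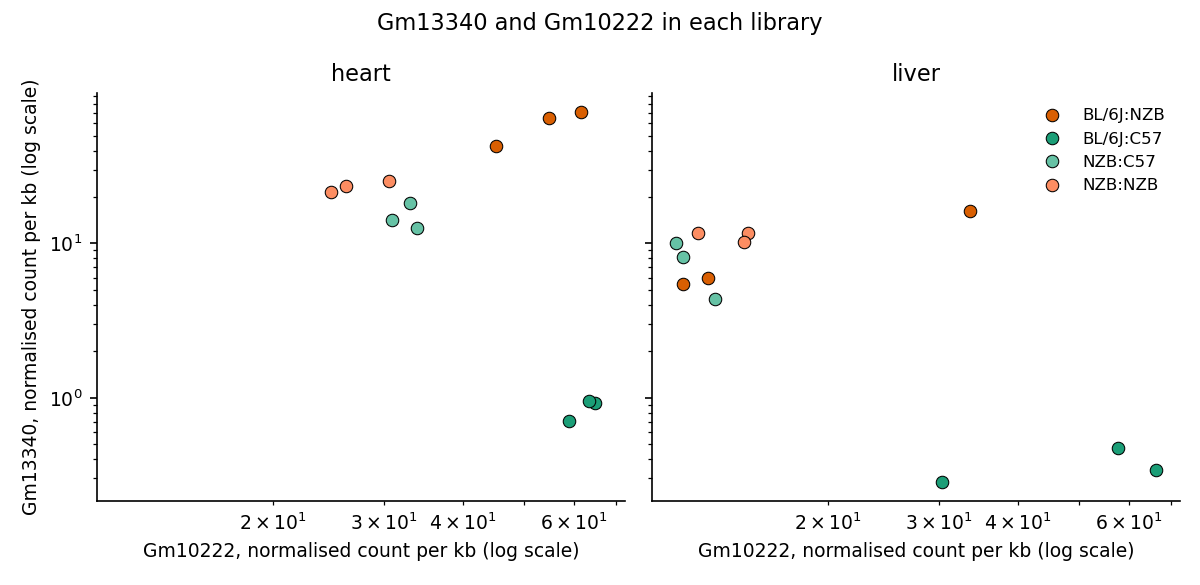
Gm13340 against Gm10222, both in normalised counts per kilobase on log axes, 1 point per pool, hearts left and livers right. BL/6J:C57 pools lie apart at low Gm13340 and high Gm10222, and the 3 BL/6J:NZB liver pools lie along a line of equal ratio (0.464 to 0.485).

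Traces of liver markers differed among the hearts. BL/6J:NZB heart pool 3, the lowest of its group for Gm13340 (65.9), had a hepatocyte marker sum of 193, against 23.0 and 29.4 in the other BL/6J:NZB hearts and 15.7 to 19.2 in BL/6J:C57 hearts. The sum was 45.8 to 99.7 in NZB:C57 hearts and 86.7 to 97.3 in NZB:NZB hearts. All 8 hepatocyte markers were detected in these hearts, and livers summed to 119266 or more. The log2 difference of Gm13340 between BL/6J:NZB and BL/6J:C57 hearts was 5.51 without that pool and 5.29 with it. Cardiomyocyte markers summed to 0.314 to 149 in NZB:C57 livers and to 46.0 to 152 in NZB:NZB livers, against at most 1.08 in livers on the BL/6J nucleus. The part of these traces in the levels of Gm13340 was not tested.

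The genes around Gm13340 on chromosome 2 had smaller differences than Gm13340 on the BL/6J nucleus. Gm13340 was chosen for its values, and no gene had a higher difference there in either tissue. That order was therefore fixed beforehand and tells nothing about the locus. The 5 nearest genes with values on either side were Arhgap21, Gm13375, Enkur, Thnsl1 and Gm13341 on one side, and Gm13339, Apbb1ip, Pdss1, Abi1 and Acbd5 on the other, with 9 past the filter in hearts and 7 in livers. Apart from the flanking copies, the nearest is Apbb1ip, an adaptor in integrin signalling, 184.4 kb away. Between BL/6J:NZB and BL/6J:C57 no neighbour was called by limma, edgeR or DESeq2 in hearts or livers (2 in hearts and 0 in livers at an unadjusted p under 0.05). With 0.935% of all genes called by limma in hearts and 0.0076% in livers, few calls could fall in a list of this size. The highest difference was that of Gm13339 in hearts, the flanking copy described above, at 1.12 and in the direction of Gm13340. The neighbours' median log2 difference, with Gm13339 among those in hearts, was 0.02 in hearts and 0.10 in livers, beside 0.00 and -0.01 over all genes. Between NZB:C57 and NZB:NZB 1 of the 9 was called in hearts, where 15.9% of all genes were. It was Gm13375, which averaged 9.43 ± 0.448 in NZB:C57 hearts and 6.24 ± 1.19 in NZB:NZB hearts (log2 difference 0.54, SE 0.16, adjusted p = 0.0312). This difference was -0.09 in RPM, and Gm13375 lies directly beside Arhgap21. In RPM 0 neighbours were higher and 5 lower in that comparison, beside 803 higher and 10233 lower of all 13803 genes. In livers none was called by the same 3 tools, with 1 at an unadjusted p under 0.05 and 8.09% of all genes called by limma. There 2 neighbours were lower in RPM, beside 2562 of all 13159 genes. Arhgap21 was lower with NZB mtDNA in hearts over both nuclei (-0.22, SE 0.07, limma adjusted p = 0.0386), in a comparison that called 14.1% of all genes. Of 20 alternatives, 9 lost this call, at -0.22 with the replicate block of 12 libraries and at -0.22 to -0.17 without single pools, and RPM turned it to 0.15. The median of all genes in that comparison was 0.33 in RPM. In livers that average called 0 neighbours by all 3 tools, with 1 at an unadjusted p under 0.05, and 6.66% of all genes.

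**Figure D5:**
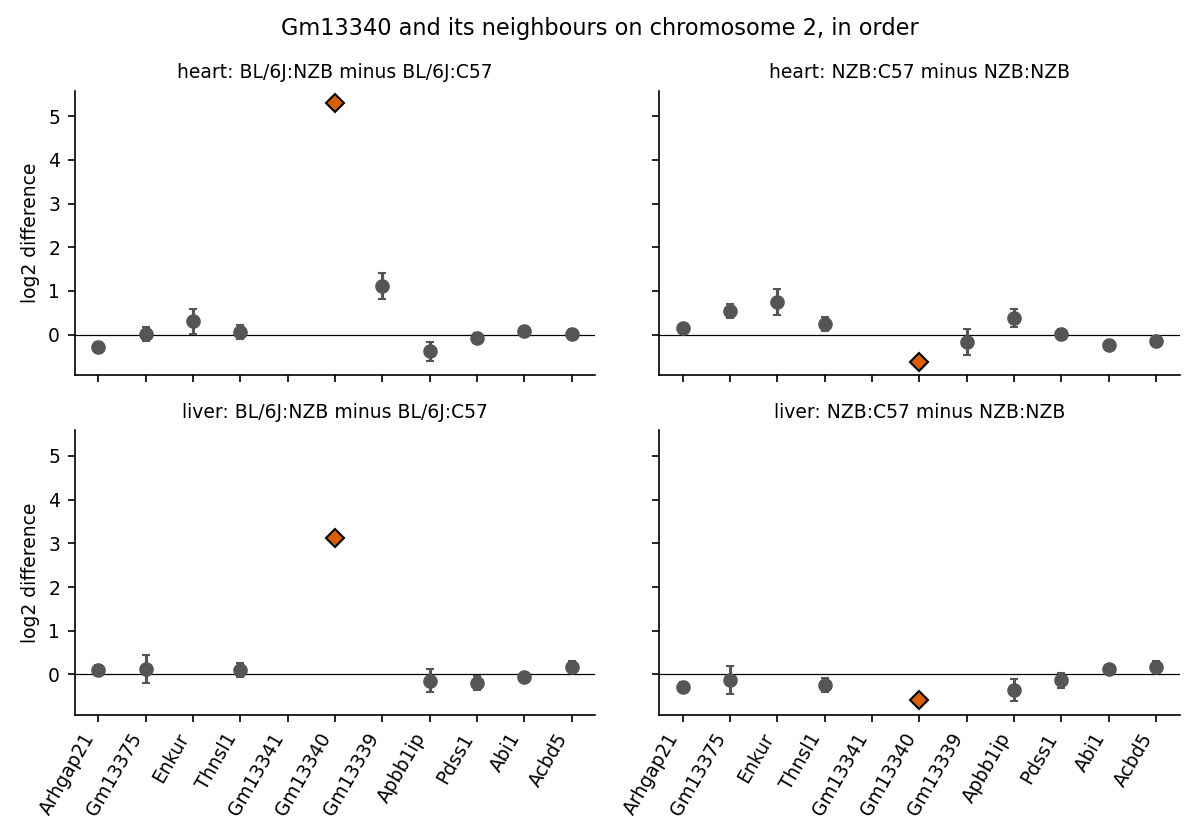
Log2 difference of Gm13340 (diamonds, no test) and of its 10 neighbours in chromosome order (circles, bars are standard errors from limma) for the conplastic minus the parental line of each nucleus. Gm13340 stands at 5.29 and 3.13 on the BL/6J nucleus and at -0.63 and -0.59 on the NZB nucleus; genes below the filter have no point.

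Gm13340 copies the mtDNA gene of a complex IV subunit, so the nuclear genes of that complex were counted beside it. Of 37 subunit and assembly genes with values, 3 rose and 0 fell in BL/6J:NZB hearts against BL/6J:C57 hearts (limma, 0.935% of all genes called). They were Slirp, which stabilises mtDNA messengers (33.7 ± 2.45 in BL/6J:NZB and 23.4 ± 1.69 in BL/6J:C57 hearts, log2 difference 0.51, adjusted p = 0.0304), and the subunits Cox7c (0.61, adjusted p = 0.0425) and Cox7b (0.41, adjusted p = 0.044). The median of the list was 0.15, beside 0.00 over all genes. No complex IV gene was called there with the replicate block of 12 libraries, or without BL/6J:C57 pool 1 or 3 or BL/6J:NZB pool 2 or 3, and 10 were called by DESeq2. Where Gm13340 was lower, in NZB:C57 hearts against NZB:NZB hearts, 5 of the 37 rose and 0 fell with the authors' values. Of all 13803 genes 1791 rose and 399 fell (15.9% called), so the rises in the list were near the share over all genes. In RPM, on which the median of all genes was -0.65, 3 of the list were higher and 32 lower. All genes on that scale had 803 higher and 10233 lower. With the authors' values, Cox8b and Cox6a2 are given below. The highest were the muscle isoforms Cox8b (864 ± 65.2 in NZB:C57 and 196 ± 15.9 in NZB:NZB hearts, 2.13, adjusted p = 2.95e-12) and Cox6a2 (1.48, adjusted p = 1.17e-09). The 8 cardiomyocyte markers, all detected, summed to 247303 to 255661 in NZB:C57 hearts and to 27880 to 28279 in NZB:NZB hearts, and their part in these rises was not tested. In livers 0 of 35 passed in either pair by limma, edgeR or DESeq2, with 3 in each at an unadjusted p under 0.05, beside 0.0076% of all genes called by limma on the BL/6J nucleus and 8.09% on the NZB nucleus.

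The effect of NZB against C57 mtDNA was set against itself on the NZB and BL/6J nuclei for Gm10222. The difference of the effects was -0.03 (SE 0.18) in hearts (limma, adjusted p = 0.953), where 11.2% of genes were called, and 1.49 (SE 0.44) in livers (adjusted p = 0.13), where 2.49% were called. For Gm13340 the same quantity, given without a test, was -4.66 in hearts and -2.54 in livers, the lowest value of all 13803 genes in hearts.

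By likeness of log2(value + 1) over the 24 libraries, the genes nearest to Gm13340 among 12062 were Purg (Pearson r = 0.70), Mageh1 (0.66), Eef1akmt2 (0.65), Sema3d (0.64) and Sumo2 (0.64). None was as sharply low in BL/6J:C57 mice. Purg, a nucleic acid binding protein, averaged 3.04 ± 0.425 in BL/6J:NZB hearts and 1.89 ± 0.401 in BL/6J:C57 hearts. After the mean of each nucleus and tissue was subtracted, the nearest were Mospd2 (0.76), Papss2 (0.71), Gm17131 (0.70), Gabpb2 (0.70) and Stard4 (0.70). Mospd2, a protein of membrane contact sites, averaged 15.3 ± 0.360 in BL/6J:NZB hearts and 12.03 ± 0.872 in BL/6J:C57 hearts. Gm10222 had r = -0.19 with Gm13340, or -0.39 after the subtraction. The points share libraries and tissues, so these are descriptions.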

How the data were processed

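Polyadenylated RNA of 24 pooled libraries was sequenced. Per the submitters' processing notes, Bowtie2 2.0.6, RSEM 1.2.3, edgeR and cutadapt 1.2.1 were used with GRCm38, in roles not stated; strand use, the treatment of reads that match several places and the rule by which genes were kept are given by no source used here. The deposited signal had been normalised by the authors, per the file headers. Dividing each column by 1 constant returned whole reads for 100% of values (tolerance 0.01 reads).

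limma 3.58.1 (trend, R 4.3.3) was fitted per tissue to log2(value + 1) for genes reaching a value of 1 in 3 or more of 12 libraries, with Benjamini-Hochberg adjustment over all genes (13159 in liver, 13803 in heart) and a threshold of 0.05. A log2 difference on this scale understates changes of low genes. The script was tested on simulated data with known changes. On recovered reads, edgeR 4.0.16 called 2 genes and DESeq2 1.42.0 called 86 between BL/6J:NZB and BL/6J:C57 livers, and 190 and 417 in hearts. Symbols, positions and sequences came from GENCODE vM21 (GRCm38), which gave 15116 genes a position, and mtDNA words from its 37 mtDNA genes. Named were Gm13340, the copies, 10 neighbours, at most 4 called complex IV genes per comparison by smallest p, the 5 most alike genes by each measure and, of genes separating the mtDNAs, at most 10. Gm13340 and all lists were chosen with earlier results of these data known. Genes outside the rule (Gm11408, Cep295 and the genes lowest in BL/6J:C57) were chosen after their values or sequences were seen. Of the complex IV names, 37 of 38 were in use. Replicates differed by more than sampling noise in all 24 pairs. Alternatives were other pseudocounts, no filter, RPM (reads scaled to the library total), TMM, other tools, single pools left out and a replicate block.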

Additional observations from a re-analysis of the deposited data

Results flagged for a closer look

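For 37 complex IV genes in hearts, the effect of NZB against C57 mtDNA was compared between the nuclei (limma interaction, adjusted over 13803 genes). It was called lower on the NZB nucleus than on the BL/6J nucleus for 8 of them and higher for 1. Over all 13803 genes 196 were called higher and 1354 lower, 11.2% together. The 8 genes are among those named by smallest p, some of them in this same comparison. The difference, NZB minus BL/6J nucleus on the log2 scale, was -2.48 for Cox8b (adjusted p = 1.05e-10), -1.56 for Cox6a2 (1.31e-07), -1.06 for Cox4i2 (0.00503), -0.90 for Cox19 (0.000108) and -0.71 for Cox7a1 (0.000276). It was -0.61 for Slirp (0.00643), -0.61 for Cox7c (0.0365) and -0.46 for Cox7b (0.0194). In RPM (reads scaled to the library total) the sign turned for Slirp, Cox7c and Cox7b, and the call was lost for Cox4i2 (-0.47), Cox19 (-0.24) and Cox7a1 (-0.03). On that scale the median of this difference over all genes was 0.61, against -0.01 with the authors' values. There 8442 genes were called higher and 685 lower. All of the genes just named stayed below that median, so RPM moved them with the other genes. Of the 20 alternatives, 9 others lost the call of Cox7c, at -0.63 to -0.47, and 6 others that of Cox7b, at -0.44 to -0.39. Lrpprc, named here after its value was seen, differed the other way by 0.32 (adjusted p = 0.05, just under the threshold). NZB:C57 hearts, which stand apart in cardiomyocyte markers and in the sum of values, enter all of these, and their part was not tested.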

How the results depend on the processing

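The log2 differences of Gm13340, whose signs its choice fixed, moved in size. On the BL/6J nucleus the liver difference was 4.27 with a pseudocount of 0.1 and 4.33 with TMM, and 2.66 to 3.40 with 1 pool left out. The heart difference was 5.63 and 5.99 with pseudocounts of 0.5 and 0.1, 5.97 with TMM, and 5.15 to 5.51 with 1 pool left out. On the NZB nucleus the heart difference was -1.32 with reads scaled to the library total (RPM), and with 1 pool left out it was -0.78 to -0.52 in hearts and -0.82 to -0.27 in livers. Other copies called in livers on the BL/6J nucleus numbered 1 by DESeq2 (0 to 1 with 1 pool left out), and only Gm10222 was past the filter there. Calls of copies in hearts are not counted, since Gm4076 passed the filter only through the groups where it was high. The heart difference of Gm4076 ran from 1.44 to 5.26 on the BL/6J nucleus and from -2.66 to -0.92 on the NZB nucleus. Neighbours called on the NZB nucleus numbered 2 in livers and 5 in hearts in RPM, and 0 in hearts by DESeq2 (0 to 1 with 1 pool left out). Complex IV calls in BL/6J hearts were 10 by DESeq2, 1 with no filter, 6 with only the 6 libraries compared, 7 in RPM and 0 to 7 with 1 pool left out. Calls over all genes there numbered 417, 37, 233, 154 and 6 to 193 in the same order. On the NZB nucleus complex IV calls were 2 in livers and 35 in hearts in RPM. That scale called 2917 of 13159 genes in these livers and 11036 of 13803 in these hearts, which also stands beside the RPM counts of neighbours. DESeq2 called 86 of 13151 genes in BL/6J livers and 1890 of 13802 in NZB-nucleus hearts. RPM also turned the sign of heart differences: Arhgap21 (0.15) and Cox19 (0.057) between the mtDNAs, Cox7a1 (-0.20) and Gm13375 (-0.085) between NZB:C57 and NZB:NZB, and the nuclear difference in mtDNA effect of Cox7b (0.21), Cox7c (0.063) and Slirp (0.043). On that scale the median of all genes stood at -0.65 in NZB:C57 against NZB:NZB hearts and -0.22 in livers. In hearts it stood at 0.33 between the mtDNAs and at 0.61 for the nuclear difference in mtDNA effect. The genes listed for these last comparisons lay below those medians.

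The labels tie no meaning to the replicate numbers, and same-numbered pools had correlations of -0.03 to 0.13, not all over 0.1 in any pair of groups, so the numbers were not taken as pairs. Pools matched their own number best in 13 of 24 cases, and in all 6 in the BL/6J hearts (correlations of 0.02 to 0.08), where a block over 6 libraries called 354 genes and none 233. With the replicate block, complex IV calls in BL/6J hearts were 0 with 12 libraries and 8 with 6, and in NZB-nucleus livers 1 with 6. Calls over all genes were 15, 354 and 1148 in the same order. The log2 differences of Gm13340 were 3.13, -0.59, 5.29 and -0.63, which a balanced block cannot move. All genes called between BL/6J:NZB and BL/6J:C57 numbered 0 to 195 in livers and 6 to 417 in hearts over the alternatives. The causes were not tested. Depth limits the low copies, which have 0 to 3 reads in many libraries.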
